A study of Mus musculus with 25 samples.

Results

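Wild-type (WT) mouse lungs taken on Day 7 after bleomycin were compared with WT lungs taken on Day 0, across all genes on the array. The samples were chosen by title, 4 titled as WT mice on Day 7 and 4 as WT mice on Day 0, which makes 8 of the 25 samples of the series. All 25 mice were female, and the labels' protocols describe bleomycin (1 mg/kg, dissolved in 40 ul saline) given intratracheally on Day 0. The sources used here do not state whether the Day 0 lungs were taken before or after that dose, or the age and strain of the mice. The other samples are WT lungs of Day 14 (n = 5) and lungs of mice without FP, the prostaglandin F receptor encoded by Ptgfr (FP-KO), on Day 0, Day 7 and Day 14 (n = 4 each). The FP-KO lungs of Day 0 and Day 7 are described below only to set the WT change beside the same change in the other genotype. All 25 arrays also entered the normalization, the filter on low intensity and the estimate of spread behind each p-value. Each mouse was measured on 1 Affymetrix mouse genome array, which reports the brightness (intensity) of probe sets, groups of short probes for 1 transcript.

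Bleomycin is an anticancer drug that breaks DNA. Given into the airway it kills alveolar epithelium and endothelium, draws in neutrophils and then monocytes, and is followed by fibroblast expansion and scar matrix, which makes it a standard model of lung injury and fibrosis. In the first week the mouse lung passes from acute injury into early repair, when surviving epithelial cells and fibroblasts divide and monocyte-derived macrophages fill the airspaces.

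In the sections below, intensities are the authors' values for each mouse, given in the order No.1 to No.4. A change is the Day 7 minus Day 0 difference of normalized log2 intensity with its standard error from limma after ±, so that 1 is a doubling. Intensities under a floor of 24.3, the 20th percentile, were set to that floor before the fit. A gene is said to have risen or fallen where its limma p-value, adjusted by Benjamini-Hochberg over the 12062 genes tested, was under 0.05. The number of arrays, 4 on each day, limits the precision, and the median gene had a 95% interval of 0.28 either way. The titles number the mice within each group, and the Day 0 and Day 7 lungs come from different mice. A change given for a single Day 7 mouse is its difference from the Day 0 mean. The p-values rest on 1 estimate of spread per gene between mice within groups. All 25 arrays share that estimate, those of FP-KO and Day 14 lungs included.

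The arrays differed in ways other than the day. The ratio of 3′ to 5′ signal of Actb, a sign of RNA length, was 1.62, 1.34, 1.37 and 1.43 on Day 0 and 1.23, 1.23, 1.28 and 1.32 on Day 7, with no overlap, and its part in the results was not tested. Day 0 No.1 also had an 18S ribosomal RNA intensity of 2869.8, while No.2 to No.4 lay between 209 and 474, so the main counts are also given without it. Over the 8 arrays the first principal component held 64.3% of the variance and separated the days (Day 0 from -33.1 to -26.2, Day 7 from 20.3 to 38.5), while the second, 10.5%, put No.1 and No.2 of both days above 0 and No.3 and No.4 below it. As a check of the tissue, the surfactant genes Sftpc and Sftpb and the club cell gene Scgb1a1 were bright in all 8 arrays (lowest intensity 26805, 16132 and 32761) and did not pass, with changes of 0.00, -0.15 and -0.04. The check as planned also named the alveolar type 1 gene Ager, whose values are not given here. Other markers of these cell types did change, and alveolar type 1 markers fell in 9 of 16.

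Rises and falls were about equal in number by Day 7. Of 12062 genes tested 2065 rose (17.1%) and 2171 fell (18%), together 4236 (35.1%). Without Day 0 No.1 these counts were 1800 and 1799, and with 1 of the 8 mice left out in turn they ran from 1733 to 2054 and from 1799 to 2070. A fit on only the 8 WT arrays, with normalization and filter unchanged, called 2028 rises and 2112 falls. It kept 1848 of the 2065 rises and 1904 of the 2171 falls. Rises reached further than falls: 490 genes rose by at least 1 (4.06%) and 196 fell by at least 1 (1.62%), and 137 genes rose by 2 or more while 4 fell by 2 or more. Without Day 0 No.1, 495 rose and 173 fell by at least 1. Many steps were small, as 815 of the rises and 995 of the falls were under 0.5, with a median rise of 0.59 and a median fall of -0.53. The 8 mice separated fully by day in 4225 genes (35%), 2079 with all Day 7 mice above (17.2%) and 2146 with all below (17.8%).

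**Figure D1:**
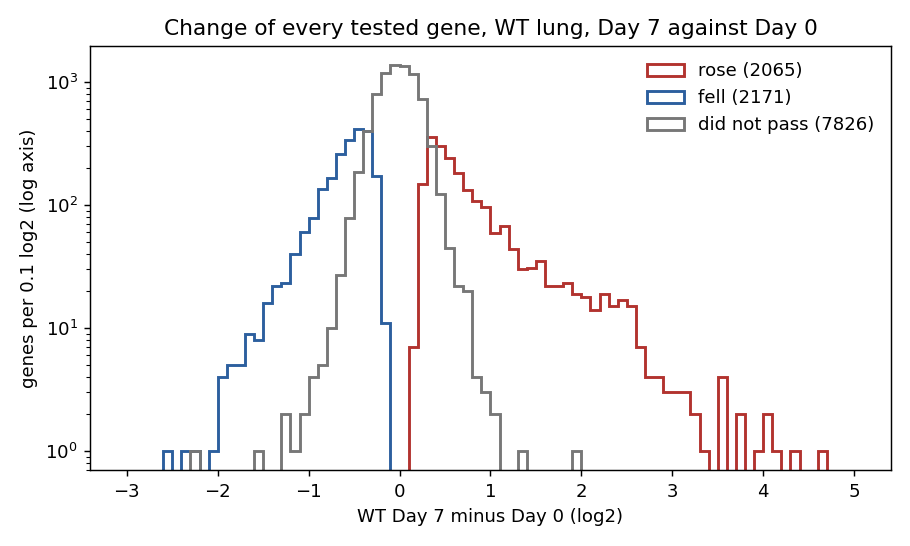
Number of genes by size of the WT change from Day 0 to Day 7 (x axis, log2; y axis, genes per step of 0.1, log axis), with genes that rose, fell or did not pass drawn as separate outlines. The outline of the 2065 rises runs out past 4, while only 4 of the 2171 falls reach -2.

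Genes that stayed near their Day 0 level could be bounded for part of the array. For 6627 genes (54.9%) the whole 95% interval of the change lay within 1.5-fold either way, and for 893 (7.4%) within 1.2-fold. The share of genes that fell grew with the level of the gene, from 13.3% of the 3016 genes with the lowest mean intensity to 22.5% of the 3016 with the highest, while the share that rose lay between 16.8% and 17.5% across 4 such groups. In 44.1% of genes the Day 7 mice spread more widely than the Day 0 mice. Lungs are mixtures, and in such bulk samples more cells of a type and more RNA per cell cannot be told apart, which holds for each result below.

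The response was sorted into 98 lists of genes by function or cell type, with 1753 distinct genes on the array, of which 1583 passed the filter on low intensity. A list is described by how many of its tested members rose or fell and by its median change, to be read beside the 17.1%, 18% and -0.01 of all tested genes. Because the lists and their members were chosen with earlier results of these data known, this comparison describes the lists and tests nothing. Where a list's count of rises or falls given below moved by more than 1.5 times with 1 mouse left out, the new count and the mouse (in brackets) follow. Of the tested list genes 837 changed, which leaves 3399 changed genes in no list.

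**Figure D2:**
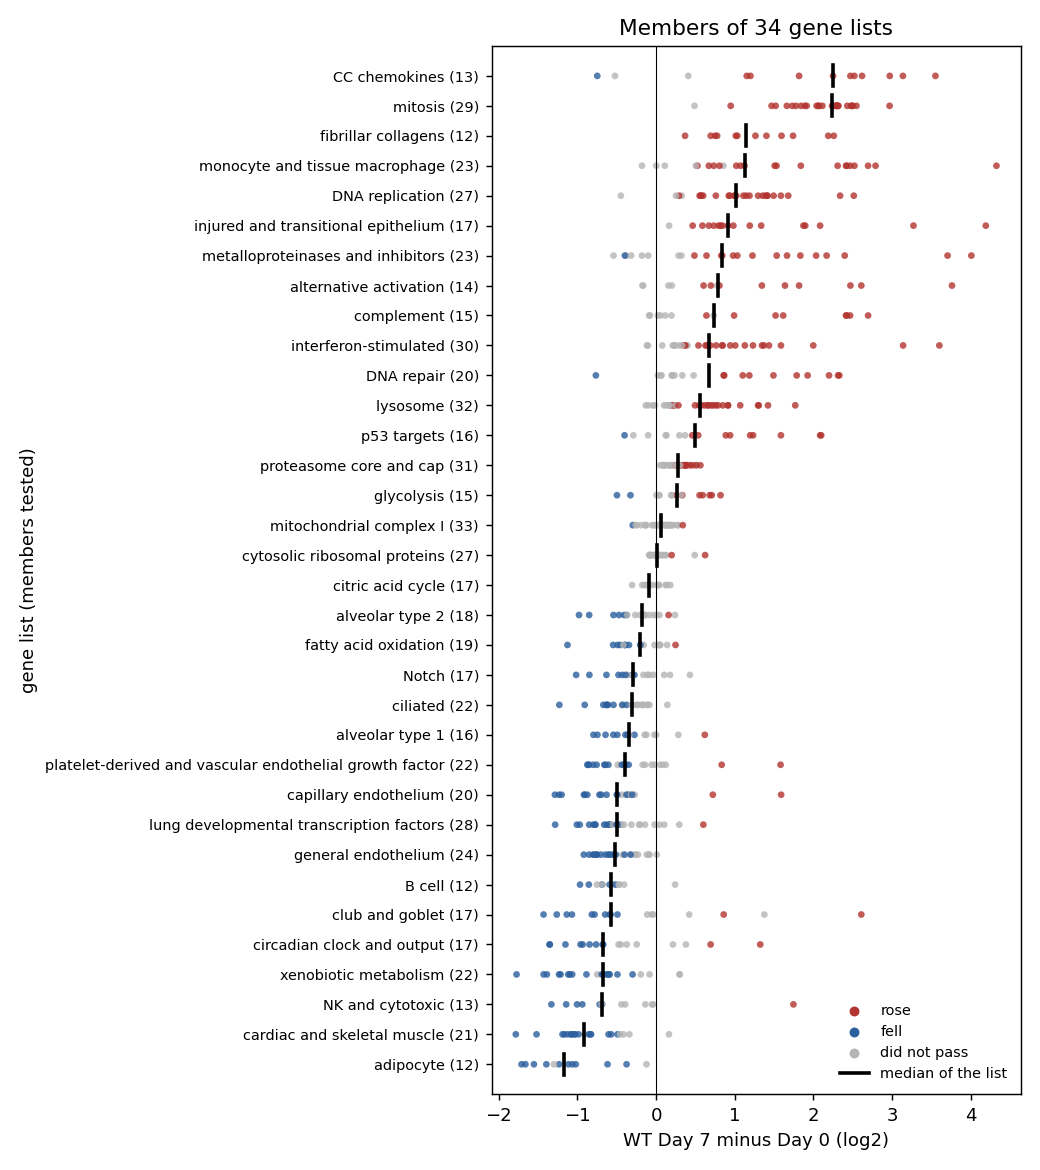
Change of each tested member (points, x axis, log2) in 34 of the lists (y axis, ordered by median, number tested in brackets), coloured by whether the member rose, fell or did not pass. CC chemokine and mitosis genes have medians of 2.25 and 2.24, and cardiac and skeletal muscle and adipocyte genes medians of -0.91 and -1.17.

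Genes on the p53 target and DNA repair lists rose more often than they fell. Of 16 p53 targets 9 rose and 1, Bbc3, fell by 0.40 (median 0.50). Eda2r, a death receptor, had intensities of 42.2, 33.8, 77.0 and 44.9 on Day 0 and 278, 216, 172 and 151 on Day 7, with every Day 7 mouse above every Day 0 mouse, a change of 2.10 ± 0.26 (adjusted p = 2.8e-06). The cell cycle inhibitor Cdkn1a (p21) had intensities of 1805, 1286, 696 and 766 on Day 0 and 5286, 6100.5, 3508 and 3644 on Day 7 and rose by 2.08 ± 0.31. On Day 0 its level was highest in No.1 and No.2, as it was on Day 7. Ccng1, another p53 target, rose by 1.59 ± 0.18. In DNA repair 10 of 20 genes rose (median 0.67), led by the double-strand break repair genes Brca1 (79.9, 49.3, 61.4 and 78.5 on Day 0, 268, 361, 308 and 384 on Day 7, a change of 2.33 ± 0.21) and Rad51ap1 (2.31 ± 0.26), and by Uhrf1, which keeps DNA methylation through replication (2.20 ± 0.28). Xpc, which recognises bulky DNA lesions, fell (-0.76 ± 0.14). Cell division genes, described below, rose in the same lungs, and their part in the rises of repair genes was not tested. Omitting a single mouse moved falls of the p53 targets list from 1 to 0 (Day 0 No.1, No.2 or No.4 or Day 7 No.2 or No.3). With 1 mouse left out the limma test was not passed by Bbc3 without Day 0 No.1, No.2 or No.4 or Day 7 No.1, No.2 or No.3 (adjusted p from 0.064 to 0.12).

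Among 19 genes of cell death and survival 7 rose, 1 fell and the median was 0.02. They include the receptor of TWEAK, Tnfrsf12a (1.41 ± 0.26, intensities 647, 986, 749.9 and 786 on Day 0 and 2752, 2773, 1699.8 and 1448 on Day 7), and the necroptosis pair of the kinase Ripk3 (0.97 ± 0.19) and the membrane-breaking Mlkl (1.25 ± 0.19). All Day 7 mice lay above all Day 0 mice for Tnfrsf12a, with No.1 and No.2 highest. Antioxidant and glutathione genes split, with 4 up and 9 down of 24. Haem oxygenase, Hmox1, rose by 1.36 ± 0.19, while the glutathione transferase Gstm1 went from 8444, 11249, 8267 and 8211 on Day 0 to 2902, 2689.6, 4183 and 5252 on Day 7, a change of -1.34 ± 0.21. Gsta3, of the same family (-0.95 ± 0.18), and catalase, Cat (-0.88 ± 0.16), fell with it. The metal-binding metallothioneins rose, Mt2 from 1879, 2272, 1071 and 875 on Day 0 to 8055, 13526, 3926 and 3567 on Day 7 (2.13 ± 0.35) and Mt1 by 1.32 ± 0.23, again most in No.2. The glucocorticoid-responsive Klf9 fell by 0.85 on the log2 scale, and in that combined list 3 of 10 rose and 2 fell. Of 11 heat-shock genes 2 rose (18.2%, near the 17.1% of all tested genes), the chaperones Hspa8 (0.35 ± 0.11) and Hspd1 (0.27 ± 0.09). The small heat-shock protein Hspb1 fell (-0.33 ± 0.11). Dropping 1 mouse moved falls of the metallothionein and glucocorticoid-responsive list from 2 to 1 (Day 0 No.2 or No.4 or Day 7 No.1, No.3 or No.4). Rises of the heat-shock response list went from 2 to 0 or 1 (Day 0 No.3 or No.4 or Day 7 No.2 or No.4). Falls of the heat-shock response list went from 1 to 0 (Day 0 No.2 or Day 7 No.1 or No.4). With 1 mouse left out the limma test was not passed by Hspa8 without Day 0 No.3 (adjusted p = 0.075), Hspb1 without Day 0 No.2 or Day 7 No.1 or No.4 (adjusted p from 0.057 to 0.080) and Hspd1 without Day 0 No.3 or No.4 or Day 7 No.2 or No.4 (adjusted p from 0.054 to 0.086). The change of Hspa8 was 0.23 without Day 0 No.3.

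Cell division genes rose almost throughout. Of 29 mitosis genes 28 rose (median 2.24) and the remaining 1 did not pass. The mitotic kinase Cdk1 had intensities of 129, 180.1, 154 and 187 on Day 0 and 1092, 1521, 1139 and 1302 on Day 7, a change of 2.97 ± 0.31 (adjusted p = 4.2e-07) with no overlap. The proliferation marker Mki67 rose by 2.55 ± 0.24 and the kinetochore protein Cenpf by 2.50 ± 0.25. Of 27 replication genes 24 rose (median 1.02), among them the nucleotide makers Tk1 (66.1, 89.7, 103 and 107 on Day 0 and 469, 535, 457 and 576 on Day 7, a change of 2.51 ± 0.30) and Rrm2 (2.34 ± 0.28) and the helicase subunit Gins2 (1.68 ± 0.26). G1 regulators moved both ways, 11 up and 3 down of 22. The repressors E2f8 (1.90 ± 0.38) and E2f7 (1.53 ± 0.23) and cyclin E2, Ccne2 (1.81 ± 0.25), rose, and the cyclin kinase inhibitor Cdkn1c fell (-0.52 ± 0.15). Mean changes of the mitosis list in the 4 Day 7 mice were close, at 1.91, 2.14, 1.93 and 2.18.

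The promoters of the division genes are shown because these members moved together. RefSeq windows of 300 bases (250 before to 50 after the gene's start, GRCm38.p6) were searched on both strands. A gene was counted where any of its windows held the motif. The cell cycle homology region TTTGAA was found for 19 of 25 mitosis genes that have a window (76.0%, against 20.2% of all 27025 genes). For CCAAT it was 21 of 25 (84.0%, against 41.1%). The E2F site TTCCCGCC was found for 5 of 22 replication genes (22.7%, against 2.5%). A match describes the letters and shows no binding. The motif shares here and below cover list members whether or not they changed. They were not tested and are not a result about Day 7. Cdk1 (chr10:69352863-69353162, minus strand) has capitals at TTTGAA and at ATTGG, which is CCAAT read on the opposite strand. In Mcm3, a helicase subunit (chr1:20820263-20820562, minus strand), the capitals GGCGGGAA are the E2F site read on the opposite strand.
Cdk1: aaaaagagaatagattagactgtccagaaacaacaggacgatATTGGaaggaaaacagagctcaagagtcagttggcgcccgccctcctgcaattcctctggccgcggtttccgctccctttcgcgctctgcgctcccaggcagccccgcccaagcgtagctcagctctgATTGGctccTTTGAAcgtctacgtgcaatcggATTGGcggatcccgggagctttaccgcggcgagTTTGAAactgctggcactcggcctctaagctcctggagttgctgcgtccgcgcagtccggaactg
Mcm3: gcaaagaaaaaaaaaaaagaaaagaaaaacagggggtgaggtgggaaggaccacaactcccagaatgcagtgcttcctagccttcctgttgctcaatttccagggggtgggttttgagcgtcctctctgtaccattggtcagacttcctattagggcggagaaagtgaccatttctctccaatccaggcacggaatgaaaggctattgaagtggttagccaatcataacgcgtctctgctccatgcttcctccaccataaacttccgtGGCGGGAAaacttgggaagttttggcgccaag

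Genes for making proteins rose in small steps. Of 20 ribosome biogenesis genes 11 rose (median 0.33), with the nucleolar Nop58 (272, 241, 332 and 362 on Day 0 and 564, 527, 477 and 520.4 on Day 7, a change of 0.80 ± 0.12) first, while of 27 ribosomal protein genes 2 rose (Rps25 by 0.62 ± 0.17 and Rps2 by 0.20 ± 0.06) and the median was 0.01. Aminoacyl-tRNA synthetases, which load amino acids onto tRNA, rose in 8 of 19, with Aars at 0.59 ± 0.13. Of 31 proteasome subunits 14 rose (median 0.28), for example Psmb5 at 0.51 ± 0.09 and Psmd8 at 0.56 ± 0.15 (2738, 3683, 2901 and 3577 on Day 0 and 5285, 6028, 4370.5 and 3904 on Day 7). In the secretory path 10 of 29 genes rose, led by the retrieval receptor Kdelr3 (1.21 ± 0.24) and the translocon parts Ssr2 (0.54 ± 0.13) and Ssr4 (0.49 ± 0.12). Of 23 endoplasmic reticulum genes 7 rose, such as Pdia3 (0.51 ± 0.11) and Dnajb11 (0.54 ± 0.12), and 2 fell, with Herpud1 at -0.67 ± 0.14. Cytoskeletal genes rose in 12 of 21. The tubulin Tubb6 went from 602, 419, 374 and 539.7 on Day 0 to 1887, 2710.4, 1514 and 1926 on Day 7 (2.04 ± 0.22). The actin-capping Capg rose by 1.02 ± 0.14. Of 17 S100 and annexin genes 7 rose, S100a14 by 2.21 ± 0.26 and the fibroblast and macrophage gene S100a4 by 2.02 ± 0.23, and S100g fell (-0.85 ± 0.20). Removal of 1 mouse moved rises of the ribosome biogenesis list from 11 to 7 (Day 0 No.4 or Day 7 No.1 or No.2). Rises of the proteasome core and cap list went from 14 to 9 (Day 7 No.1). Rises of the secretory transport list went from 10 to 6 (Day 7 No.2). Rises of the endoplasmic reticulum chaperones and stress list went from 7 to 3 or 4 (Day 0 No.3 or No.4 or Day 7 No.1).

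The endoplasmic reticulum stress element, CCAAT, any 9 bases and then CCACG, was found for 7 of 20 genes of that list (35%, against 0.1% of all genes). One copy, in capitals, lies in the window of the co-chaperone gene Dnajc3 (chr14:118937682-118937981, plus strand), printed by the rule given for the division genes.
Dnajc3: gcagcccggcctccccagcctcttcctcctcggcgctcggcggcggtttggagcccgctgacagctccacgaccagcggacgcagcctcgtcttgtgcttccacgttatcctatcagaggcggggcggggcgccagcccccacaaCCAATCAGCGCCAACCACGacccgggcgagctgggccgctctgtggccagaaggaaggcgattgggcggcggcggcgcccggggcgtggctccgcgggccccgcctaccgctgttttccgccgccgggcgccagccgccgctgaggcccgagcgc

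Energy metabolism moved unevenly. Mitochondrial respiratory genes showed few calls, with 1 up and 1 down of 33 for complex I (median 0.07), 3 up of 35 for complexes II to V (median 0.12) and no call among 17 citric acid cycle genes (median -0.09). For the complex I subunit Ndufs4, which rose by 0.34 ± 0.09, another probe set passed the other way, so its direction is uncertain. Of 15 glycolysis genes 7 rose and 2 fell, the phosphoglycerate mutase Pgam1 at 0.71 ± 0.08 (2039, 2399.6, 2001 and 2122 on Day 0 and 3664, 3748, 3302 and 3369 on Day 7) and pyruvate kinase, Pkm, at 0.68 ± 0.11. Fatty acid oxidation fell in 8 of 19 (median -0.20), with the lipid-sensing receptor Ppara going from 309, 227, 220.2 and 198 on Day 0 to 85.4, 102, 129.6 and 115 on Day 7, a change of -1.13 ± 0.20, and the dehydrogenases Hadh (-0.55 ± 0.15) and Acadm (-0.49 ± 0.10). Its 1 rise, of Decr1, had a probe set that passed the other way. Lipid handling genes held 5 rises and 2 falls in 18, with the apolipoproteins Apoc2 (1.44 ± 0.20) and Apoe (1.02 ± 0.15) and the lipid droplet coat Plin2 (0.86 ± 0.13) among the rises. In sterol synthesis 1 of 14 rose. Counts moved without 1 mouse for rises of the mitochondrial complex I list from 1 to 2 (Day 0 No.2 or Day 7 No.3). Falls of the mitochondrial complex I list went from 1 to between 0 and 3 (Day 0 No.3 or No.4 or Day 7 No.1, No.2, No.3 or No.4). Falls of the mitochondrial complexes II to V list went from 0 to 1 (Day 0 No.1). Rises of the citric acid cycle list went from 0 to 1 (Day 0 No.1). Falls of the glycolysis list went from 2 to 1 (Day 0 No.2 or Day 7 No.1 or No.2). Falls of the fatty acid oxidation list went from 8 to 4 or 5 (Day 0 No.1 or Day 7 No.1 or No.4). Rises of the sterol synthesis list went from 1 to 0 (Day 0 No.1 or No.2 or Day 7 No.3 or No.4). Falls of the sterol synthesis list went from 0 to 1 (Day 0 No.3 or No.4 or Day 7 No.4). Falls of the fatty acid synthesis and lipid export list went from 2 to 5 (Day 7 No.4). Muscle and adipocyte markers, described below, fell in the same lungs, and their part in the falls of oxidation genes was not tested.

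Enzymes that clear foreign chemicals fell together. Of 22 tested xenobiotic metabolism genes 17 fell, none rose and the median was -0.68. The aldehyde oxidase Aox3 had intensities of 5262, 5470.1, 4548 and 4929 on Day 0 and 1121, 855, 2053 and 2315 on Day 7, a change of -1.77 ± 0.24, with No.3 and No.4 the highest of the Day 7 mice. Fmo1, a flavin monooxygenase, went from 9437, 10475, 11096 and 12189.5 on Day 0 to 3737, 3351, 5586 and 4714 on Day 7 (-1.39 ± 0.17), and the cytochrome Cyp2e1 fell by 1.43 ± 0.30. In each of the 3 the days did not overlap. The aryl hydrocarbon receptor target Cyp1a1 showed no such pattern: its intensities were 156, 345, 56.7 and 146 on Day 0 and 47.6, 36.4, 73.7 and 437 on Day 7, and it did not pass (-0.75 ± 0.91). Taking 1 mouse out moved rises of the xenobiotic metabolism list from 0 to 1 (Day 7 No.2).

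Macrophage genes were among the largest rises. Of 23 monocyte and macrophage markers 18 rose (median 1.12), and their summed intensity was 77503 to 95816 in the Day 0 mice and 118632 to 142492 in the Day 7 mice. The lipid receptor Trem2 had intensities of 35.3, 20.9, 60.4 and 33.7 on Day 0 and 898, 1088, 598 and 433 on Day 7, a change of 4.33 ± 0.53, and stood highest in No.1 and No.2. The scavenger receptor Msr1 (2.79 ± 0.26) and the complement chains C1qb, C1qa and C1qc (2.69 ± 0.27, 2.47 ± 0.23 and 2.42 ± 0.24) followed. C1qb went from 740.4, 1179, 998 and 915 on Day 0 to 6803, 7732, 5130.2 and 5522 on Day 7, with no overlap between the days. Complement genes rose in 8 of 15, and Fc receptor genes in 7 of 9, with the high-affinity IgG receptor Fcgr1 at 2.31 ± 0.23 (185, 195, 179 and 182 on Day 0 and 838, 1089.7, 726 and 1008 on Day 7) and the low-affinity receptors Fcgr3 (1.84 ± 0.26) and Fcgr2b (1.80 ± 0.29). Lysosome genes rose in 22 of 32 (median 0.56), including the proteases Ctsk (545, 767, 653 and 608 on Day 0 and 1864, 1856, 2889.7 and 2278 on Day 7, 1.77 ± 0.23) and Lgmn (1.42 ± 0.17) and the glucuronidase Gusb (1.30 ± 0.12). Iron and haem handling genes rose in 3 and fell in 1 of 16 (18.75% and 6.25%, beside 17.1% and 18% of all tested genes). The phagosomal metal transporter Slc11a1 rose by 1.05 ± 0.14 and the iron exporter Slc40a1 by 0.56 ± 0.14. Leaving out 1 mouse moved falls of the iron and haem handling list from 1 to 2 (Day 0 No.4 or Day 7 No.3). Trem2 lay under the floor in 1 of 4 Day 0 mice, so the size of that change depends on the floor.

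Markers of the alveolar macrophages that live in the airspaces at rest did not share one direction. Of 16 such genes 7 rose and 4 fell (median 0.10). The fatty acid carrier Fabp1 had the largest fall of all genes tested, from 694, 616, 892 and 744 on Day 0 to 56.7, 83.1, 279.7 and 162 on Day 7 (-2.59 ± 0.39), with No.3 the highest of the Day 7 mice. The inhibitory receptor Cd200r1 (125, 190.4, 184 and 194 on Day 0 and 633, 683, 476 and 469.5 on Day 7, 1.72 ± 0.30), the scavenger receptor Marco (1.12 ± 0.34) and the integrin Itgax (1.0 ± 0.18) rose. For Marco the Day 7 mice split into a lower pair, No.1 at 420.2 and No.2 at 471, and a higher pair, No.3 at 907 and No.4 at 891. Genes of alternative activation, the macrophage state linked with repair, rose in 9 of 14 (median 0.79). Arginase 1, Arg1, had intensities of 83.2, 83.6, 58.6 and 64.5 on Day 0 and 1153, 1705, 524 and 862 on Day 7 (3.76 ± 0.53), highest in No.2 and lowest in No.3. Retnla (2.61 ± 0.26) and the chemokine Ccl17 (2.47 ± 0.36) rose as well.

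Chemokines are the signals that call leukocytes, and CC chemokines had the highest list median, with mitosis genes close behind at 2.24. The filter on low intensity kept 13 of the 16 CC chemokines on the array, so that median leaves out members dim on most arrays. Of 13 CC chemokines 10 rose and 1, Ccl27a, fell (-0.75 ± 0.18), with a median of 2.25. The monocyte attractant Ccl2 had intensities of 78.4, 48.5, 45.5 and 62.8 on Day 0 and 644, 998, 425 and 732 on Day 7 (3.55 ± 0.30, adjusted p = 5.2e-08), and Ccl7 (3.14 ± 0.36) and Ccl8 (2.97 ± 0.35), which act on related receptors, rose with it. Of 12 CXC chemokines 9 rose and 2 fell (median 0.89). Cxcl9, a T cell attractant induced by interferon gamma, had intensities of 21.1, 67.1, 27.2 and 9.3 on Day 0 and 227, 398, 329.9 and 779.8 on Day 7 (3.60 ± 0.47), highest in No.4. The neutrophil attractant Cxcl2 rose by 2.60 ± 0.40. The platelet chemokine Ppbp fell. Among 15 chemokine receptors 5 rose, Ccr1 from 317, 298, 291 and 219 on Day 0 to 1543, 2128, 825 and 1053 on Day 7 (2.23 ± 0.28), the monocyte receptor Ccr2 by 1.53 ± 0.21 and the venular scavenger Ackr1 by 1.52 ± 0.27. Omitting a single mouse moved falls of the CC chemokines list from 1 to 2 (Day 0 No.2). Cxcl2 lay under the floor in 1 of 4 Day 0 mice, and Ccl7 and Cxcl9 lay under the floor in 2 of 4 Day 0 mice, so the size of those changes depends on the floor.

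Of 15 tested cytokine genes 4 rose and 3 fell (26.7% and 20%, beside 17.1% and 18% of all tested genes). Il6, which drives the acute-phase response, had intensities of 16.4, 1.0, 41.9 and 45.6 on Day 0 and 196, 544, 86.4 and 206 on Day 7 (2.73 ± 0.37), with No.2 far above the other Day 7 mice. Its relative Lif (1.80 ± 0.25) and the costimulatory ligand Tnfsf9 (1.2 ± 0.15) rose. On the receiving side 10 of 22 receptor and feedback genes rose and 2 fell. Those that rose include Socs3, the inhibitor induced by Il6-type signals (989, 705, 864 and 1141 on Day 0 and 4873, 4539.6, 2869.8 and 3758 on Day 7, 2.07 ± 0.27), and the receptor chains Csf2rb (1.33 ± 0.11) and Csf2ra (1.25 ± 0.15). The receptor of Lif, Lifr, fell (-0.67 ± 0.13). Toll-like receptor genes rose in 8 of 16, with Tlr13 at 1.42 ± 0.26 (262, 175, 165 and 182 on Day 0 and 542, 638, 408 and 474 on Day 7) and Tlr2 at 1.09 ± 0.16. Of 11 NF-kappaB genes 5 rose, the inhibitors Nfkbie (313, 350.1, 395 and 409 on Day 0 and 905, 745, 793 and 1068 on Day 7, 1.26 ± 0.18) and Bcl3 (1.24 ± 0.20) and the subunit Nfkb2 (0.82 ± 0.22) among them. The kappaB site (GGGA, any 2 bases, TTCC) was in the promoters of 2 of 10 genes of that list (20%, against 1.6% of all genes). In the interleukin 1 family 8 of 15 rose, first the decoy receptor Il1r2 (122, 67.8, 48.3 and 105 on Day 0 and 226, 416, 213 and 168 on Day 7, 1.59 ± 0.33) and the receptor antagonist Il1rn (1.48 ± 0.22). Dropping 1 mouse moved falls of the cytokines and colony-stimulating factors list from 3 to 0 or 1 (Day 0 No.3 or No.4 or Day 7 No.1 or No.2). Il6 lay under the floor in 2 of 4 Day 0 mice, so the size of that change depends on the floor.

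Interferon-stimulated genes rose in 20 of 30 (median 0.67). Cxcl10, which draws T cells, had intensities of 76.7, 134, 123 and 105 on Day 0 and 899, 877, 697 and 1411 on Day 7 (3.14 ± 0.26). The nucleic acid sensor Zbp1 had 80.8, 172, 243 and 206 on Day 0 and 484, 702, 581 and 876 on Day 7 (2.00 ± 0.26). No.4 was the highest Day 7 mouse for both, and the list's mean change was 0.64, 0.80, 0.74 and 1.28 in the 4 Day 7 mice. Genes that load peptides onto MHC class I rose in 3 of 10, the peptide transporter Tap1 by 0.57 ± 0.14. Removal of 1 mouse moved rises of the immunoproteasome and MHC class I loading list from 3 to 1 (Day 7 No.4). The interferon-stimulated response element (GAAA, any 2 bases, GAAA) was in the promoters of 17 of 27 interferon-stimulated genes (63.0%, against 4.0% of all genes). The promoter of Cxcl10 (chr5:92348840-92349139, minus strand) is printed, with the match in capitals, as the list's gene with the second largest rise.
Cxcl10: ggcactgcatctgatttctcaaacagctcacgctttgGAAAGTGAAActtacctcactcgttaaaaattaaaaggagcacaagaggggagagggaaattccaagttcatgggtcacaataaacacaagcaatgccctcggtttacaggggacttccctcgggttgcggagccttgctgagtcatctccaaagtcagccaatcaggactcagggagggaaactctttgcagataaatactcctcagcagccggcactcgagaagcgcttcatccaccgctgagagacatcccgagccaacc

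Other leukocyte markers divided by cell type. Of 11 neutrophil markers 4 rose (median -0.05). The collagenase Mmp8 went from 69.0, 120.0, 92.2 and 170.4 on Day 0 to 459.8, 548, 433 and 483 on Day 7 (2.17 ± 0.29). The iron-binding Lcn2, a gene that injured epithelium makes too, rose by 1.87 ± 0.17. Of the mast cell, basophil and eosinophil list 3 of 14 genes passed the filter, and 1 of them, the transcription factor Gata2, fell (-0.59 ± 0.16). Dendritic cell genes rose in 8 of 15. Fscn1, which shapes the processes of mature dendritic cells, went from 628, 639, 599 and 632 on Day 0 to 2906, 3029, 2204 and 2968 on Day 7 (2.12 ± 0.20), and the integrin Itgae (1.55 ± 0.32) and the transcription factor Batf3 (1.49 ± 0.29) rose too. MHC class II genes rose in 5 of 8, H2-DMa by 0.79 ± 0.19 and H2-Ab1 by 0.74 ± 0.14. Neither list moved one way in full, since 1 member of each fell, Zbtb46 (-0.46 ± 0.16) and the B cell gene H2-Ob (-0.70 ± 0.24). Counts moved without 1 mouse for falls of the mast cell, basophil and eosinophil list from 1 to 2 (Day 7 No.2). Falls of the dendritic cell list went from 1 to 0 (Day 0 No.1 or Day 7 No.1). Falls of the MHC class II list went from 1 to 0 (Day 0 No.1, No.3 or No.4 or Day 7 No.1 or No.2). With 1 mouse left out the limma test was not passed by H2-Ob without Day 0 No.1, No.3 or No.4 or Day 7 No.1 or No.2 (adjusted p from 0.060 to 0.11) and Zbtb46 without Day 0 No.1 or Day 7 No.1 (adjusted p from 0.069 to 0.084).

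Lymphocyte markers fell more often than they rose. Of 14 T cell markers 4 fell and none rose (median -0.33). The transcription factor Lef1 went from 368, 398, 278 and 255 on Day 0 to 172, 158, 180.3 and 142 on Day 7 (-0.95 ± 0.16). The adhesion molecule Cd2 fell (-0.63 ± 0.15). Of genes linked with activation, 6 of 11 costimulation and checkpoint genes rose and 1 fell, with Havcr2 rising from 139, 169.8, 137 and 129.5 on Day 0 to 347, 373, 342 and 289.7 on Day 7 (1.26 ± 0.21), Tnfrsf9 by 1.24 ± 0.18 and Icos by 1.16 ± 0.15. Cytotoxic markers fell in 6 of 13 (median -0.68). Granzyme A, Gzma, had intensities of 2713, 2489.9, 2774 and 2974 on Day 0 and 1119.9, 957, 1050.3 and 1178 on Day 7 (-1.33 ± 0.23), and the NK receptor Ncr1 (-1.14 ± 0.23) and perforin, Prf1 (-1.0 ± 0.17), fell, while granzyme K, Gzmk, rose (1.75 ± 0.39). B cell markers fell in 5 of 12 (median -0.57). Cd79b went from 1326, 1045, 1336 and 1642 on Day 0 to 652, 404, 945 and 778 on Day 7 (-0.97 ± 0.20). Ms4a1, which encodes CD20, fell (-0.85 ± 0.24). The B cell mean was lowest in No.2 on both days, at -0.42 on Day 0 and -1.11 on Day 7 against the Day 0 mean. In the plasma cell list 1 of 9 rose and 2 fell (11.1% and 22.2%, beside 17.1% and 18% of all tested genes). Prdm1, which drives plasma cells, fell by 0.91 ± 0.12, the epithelial antibody carrier Pigr fell by 0.57 ± 0.17, and the IgA gene Igha passed as a rise (1.21 ± 0.47, 2310.4, 3967, 1610.1 and 1261 on Day 0 and 9199, 8387, 2775 and 2496 on Day 7, with overlap between the days). Taking 1 mouse out moved rises of the T cell list from 0 to 1 (Day 0 No.1). Falls of the costimulation, checkpoint and regulatory T cell list went from 1 to 0 (Day 0 No.3 or Day 7 No.1). Falls of the B cell list went from 5 to between 2 and 9 (Day 0 No.2, No.3 or No.4 or Day 7 No.1 or No.2). Rises of the plasma cell and immunoglobulin list went from 1 to between 0 and 2 (Day 0 No.1, No.2, No.3 or No.4 or Day 7 No.1 or No.2). With 1 mouse left out the limma test was not passed by Igha without Day 0 No.1, No.3 or No.4 or Day 7 No.1 or No.2 (adjusted p from 0.071 to 0.18). Gzmk lay under the floor in 2 of 4 Day 0 mice, so the size of that change depends on the floor.

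Blood and clotting genes moved apart. Platelet and megakaryocyte genes fell in 8 of 14 and rose in 2 (median -0.50). Ppbp went from 1817, 2218, 1986 and 1588 on Day 0 to 674, 564, 987 and 398 on Day 7 (-1.58 ± 0.25), and the receptor chain Gp9 (-1.5 ± 0.35) and the platelet tubulin Tubb1 (-1.47 ± 0.18) fell, all lowest in No.4. P-selectin, Selp, made by endothelium as well, rose by 1.13 ± 0.19. Coagulation and fibrinolysis genes rose in 10 of 15. The inhibitor Tfpi2 went from 146, 188, 209 and 182 on Day 0 to 886, 869.8, 546 and 510.5 on Day 7 (1.93 ± 0.23). Factor 10, F10 (1.72 ± 0.16), and the protein C receptor Procr (1.18 ± 0.27) rose, and thrombomodulin, Thbd, fell (-0.69 ± 0.10). Erythroid genes varied widely among the Day 7 mice. Alas2, the first enzyme of haem synthesis in red cells, had intensities of 3466, 3332, 2838 and 3305 on Day 0 and 205, 1869, 1970.3 and 1185 on Day 7 (-1.71 ± 0.47). Among the 10 genes with the widest Day 7 spread were 3 erythroid genes, Alas2, Hbb-b2 and Slc4a1, each lowest in No.1. Leaving out 1 mouse moved falls of the erythroid list from 1 to 2 (Day 0 No.4 or Day 7 No.2 or No.3). The change of Alas2 was -0.97 without Day 7 No.1 and that of Gp9 was -0.99 without Day 7 No.4.

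Genes of scar matrix rose. All 12 tested fibrillar collagen genes rose (median 1.15), of 14 in the list. Col1a1, the main chain of type I collagen, had intensities of 1008, 1044, 1253 and 1007 on Day 0 and 4654, 5319, 5407 and 5518 on Day 7 (2.26 ± 0.25), and the fibril-starting Col5a2 (2.19 ± 0.22) and Col5a1 (1.74 ± 0.21) came next. The means of the list lay between 1.13 and 1.40 in the 4 Day 7 mice. Collagen processing genes rose in 10 of 16 and fell in 2. The prolyl hydroxylase P4ha3 went from 13.7, 15.6, 28 and 26.2 on Day 0 to 164, 136, 114 and 122 on Day 7 (2.41 ± 0.29). The cross-linking oxidases Lox (1.72 ± 0.34) and Loxl1 (1.19 ± 0.12) rose, and the enhancer Pcolce2 fell (-1.39 ± 0.20). Elastic fibre genes rose in 8 of 14 and fell in 2. Elastin, Eln, had intensities of 1187, 973, 748 and 694 on Day 0 and 8659, 11607, 6616 and 6060.4 on Day 7 (3.16 ± 0.38). Ltbp2 rose by 1.5 ± 0.21 and its relative Ltbp4 fell by 0.98 ± 0.23. Basement membrane genes rose in 8 of 21 (median 0.18), and the laminin chain Lama1 lay under the floor of 24.3 in all 4 Day 0 mice and at 209, 208, 148 and 207 on Day 7. Its measured difference was at least 2.97 (log2), which is its mean Day 7 log2 intensity less the log2 of the floor. That bound makes no allowance for the spread between mice. Lama1 passed the filter on low intensity only through arrays other than those of WT Day 0. Lama3, a laminin chain of epithelium, fell (-0.60 ± 0.14). Omitting a single mouse moved falls of the basement membrane list from 1 to 2 (Day 0 No.2 or Day 7 No.4). P4ha3 lay under the floor in 2 of 4 Day 0 mice, so the size of that change depends on the floor.

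The matricellular proteins, which act on cells more than they bear load, rose in 11 of 23 and fell in 4. Tenascin C, Tnc, had intensities of 252, 267, 184 and 164 on Day 0 and 4512, 4415, 2769.8 and 2908 on Day 7 (4.05 ± 0.39), with No.1 and No.2 above No.3 and No.4 on both days. Thbs1, which activates TGF-beta, rose by 2.06 ± 0.23 and Ecm2 fell by 2.02 ± 0.27. Thbs4, whose 4 Day 0 values lay under the floor, was at 261, 249, 220.2 and 171 on Day 7. Its measured difference was at least 3.19, with no allowance for the spread between mice. Like Lama1, it passed the filter on low intensity only through arrays other than those of WT Day 0. Proteoglycans split, with 6 up and 4 down of 20 (30% and 20%, beside 17.1% and 18% of all tested genes). Versican, Vcan, rose by 2.12 ± 0.26 (264, 229, 221 and 178 on Day 0 and 1141, 1113, 764 and 823 on Day 7) and Prelp fell (-0.95 ± 0.17). Metalloproteinases and their inhibitors rose in 15 of 23 (median 0.84). The inhibitor Timp1 had the smallest adjusted p of the list (7.6e-09), with intensities of 298, 315, 297 and 282 on Day 0 and 5756, 7789.9, 3406 and 3836 on Day 7 (4.01 ± 0.28). The macrophage elastase Mmp12 rose by 3.70 ± 0.55 and the aggrecanase Adamts4 by 2.40 ± 0.34. Timp3 fell (-0.40 ± 0.11). Integrins rose in 8 of 21, Itgam of myeloid cells by 1.51 ± 0.20 and the TGF-beta activating Itgb6 (401, 447, 414 and 435 on Day 0 and 1282, 1234, 931 and 868 on Day 7, 1.34 ± 0.26) and Itgb8 (1.12 ± 0.21), and Itga8 of myofibroblast precursors fell (-0.86 ± 0.10). Dropping 1 mouse moved falls of the metalloproteinases and inhibitors list from 1 to 2 (Day 0 No.3). Adamts4 lay under the floor in 1 of 4 Day 0 mice, so the size of that change depends on the floor.

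**Figure D3:**
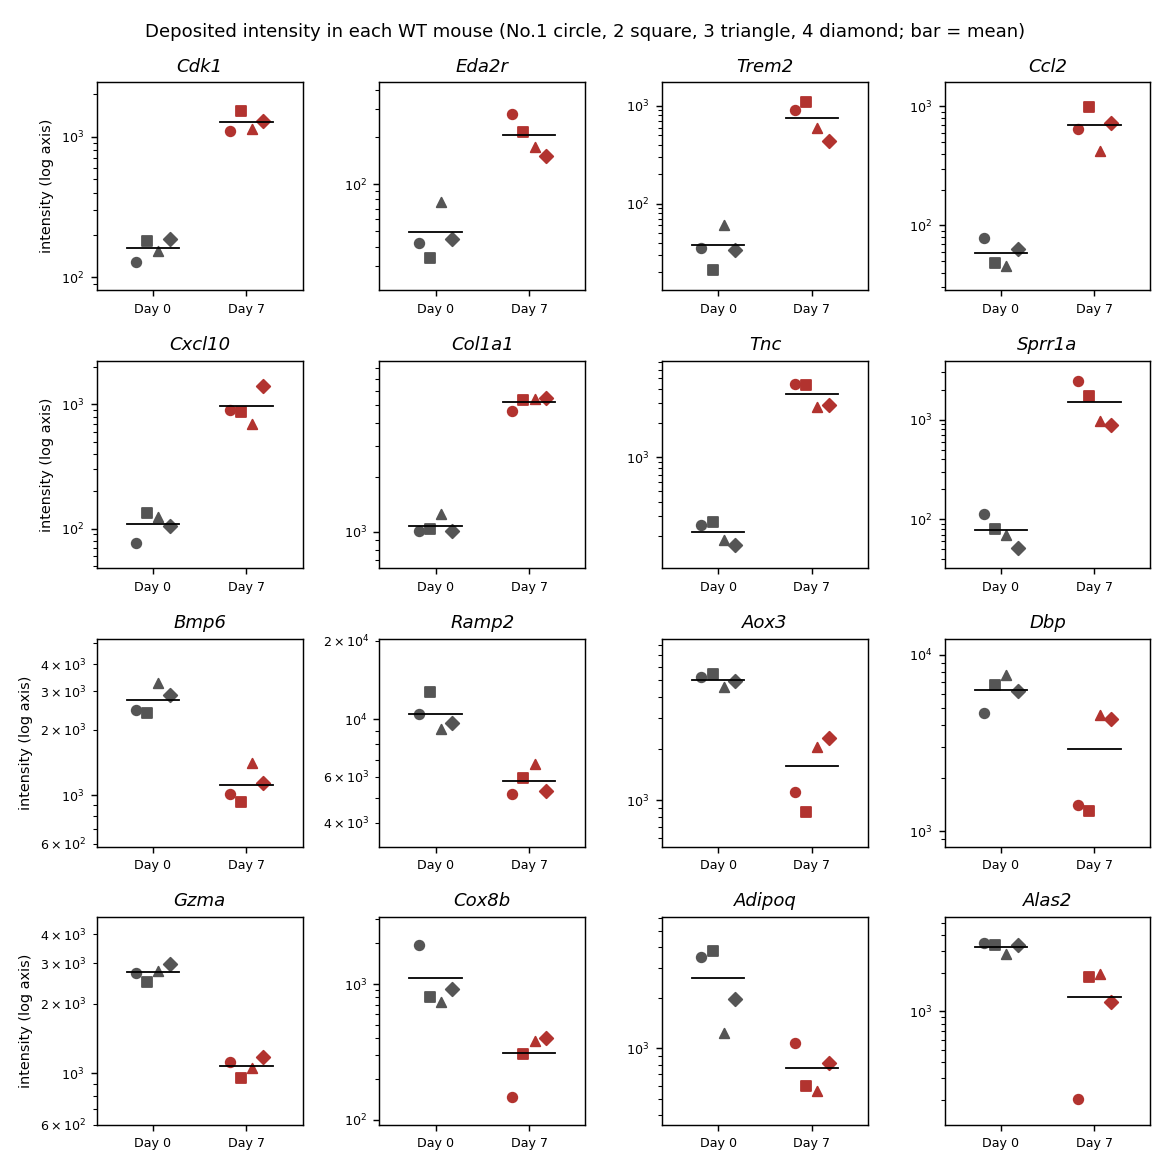
Deposited intensity of 16 genes in each of the 4 WT mice of Day 0 (grey) and Day 7 (red), with the symbol giving the mouse number and the bar the mean (y axes, log scale, separate for each gene). Cdk1, Ccl2, Col1a1 and Tnc rise and Bmp6, Gzma and Aox3 fall with no overlap between days, and Alas2 of Day 7 No.1 lies far below the rest.

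Growth factor pathways held both rises and falls. TGF-beta and activin genes changed in both directions (12 up and 6 down of 24). The activin inhibitor follistatin, Fst, had intensities of 243, 202, 144 and 159.7 on Day 0 and 887, 1008, 414 and 619 on Day 7 (1.94 ± 0.38), the activin chain Inhba rose by 1.91 ± 0.51, the target Tgfbi by 1.41 ± 0.15, and the receptor Acvr2b fell (-1.04 ± 0.18). Bone morphogenetic protein genes fell in 5 of 15 and rose in 1. The ligand Bmp6 went from 2461, 2381, 3272 and 2880.0 on Day 0 to 1012, 929, 1404 and 1135 on Day 7 (-1.28 ± 0.19), the inhibitory Smad6 (-1.19 ± 0.15) and the receptor Bmpr1b (-1.03 ± 0.26) fell, and the extracellular regulator Bmper rose (0.93 ± 0.20). Notch genes fell in 8 of 17 with none up (median -0.29). The target Hey1 went from 2278, 1819, 1622 and 1475 on Day 0 to 839.7, 895, 1007 and 722 on Day 7 (-1.02 ± 0.14). The endothelial receptor Notch4 (-0.85 ± 0.21) and the ligand Dll4 (-0.63 ± 0.12) fell. Wnt genes were mixed, with 7 up and 8 down of 30 (23.3% and 26.7%, beside 17.1% and 18% of all tested genes). The inhibitor Sfrp1 rose by 2.16 ± 0.23, and the enhancer Rspo1 (-0.86 ± 0.18), the receptor Fzd7 (-0.83 ± 0.13) and the ligand Wnt3a (-0.76 ± 0.15) fell. Hedgehog genes fell in 2 of 12 (16.7%, near the 18% of all tested genes), the receptor Ptch1 (-0.56 ± 0.14) and the co-receptor Cdon (-0.43 ± 0.12). Removal of 1 mouse moved rises of the Notch list from 0 to 1 (Day 0 No.4 or Day 7 No.4). Inhba lay under the floor in 1 of 4 Day 0 mice, so the size of that change depends on the floor.

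Receptor tyrosine kinase pathways also held both. Fibroblast growth factor genes fell in 8 of 15 and rose in 3 (median -0.55). The carrier Fgfbp1 went from 937, 1115, 621 and 806 on Day 0 to 291, 271, 341 and 371 on Day 7 (-1.39 ± 0.16). The ligand Fgf1 fell (-0.99 ± 0.12). Platelet-derived and vascular endothelial growth factor genes fell in 12 of 22 and rose in 2 (median -0.40). The apelin receptor Aplnr (5885, 6574, 6565 and 5805 on Day 0 and 2786, 3588, 2931 and 4900.1 on Day 7, -0.87 ± 0.17) and the main vascular endothelial growth factor receptor Kdr (-0.85 ± 0.19) fell, and Pdgfc, a fibroblast mitogen, rose (1.58 ± 0.35). In the epidermal growth factor family 3 of 9 rose and 2 fell. There, epiregulin, Ereg, rose from 21.5, 29.6, 20.1 and 30.6 to 342, 278, 134 and 206 (3.07 ± 0.37) and the receptor Erbb3 fell (-0.69 ± 0.12). Insulin-like growth factor genes split (4 up and 6 down of 13). The ligand Igf1 rose by 2.03 ± 0.24, while the binding proteins Igfbp3 (872, 979.8, 1103 and 692 on Day 0 and 141, 145, 246 and 209.6 on Day 7, -2.30 ± 0.32) and Igfbp6 (-1.52 ± 0.19) and the receptor Igf1r (-0.90 ± 0.18) fell. Counts moved without 1 mouse for rises of the fibroblast growth factor list from 3 to 1 (Day 7 No.2). Rises of the epidermal growth factor list went from 3 to 1 (Day 7 No.1). Ereg lay under the floor in 2 of 4 Day 0 mice, so the size of that change depends on the floor.

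Axon guidance genes, which also shape vessels, changed in both directions (5 up, 7 down of 29). These shares, 17.2% and 24.1%, lay near the 17.1% and 18% of all tested genes, and the list median was -0.02. The semaphorin Sema6a (631, 545, 603 and 497 on Day 0 and 262, 259.9, 289 and 309.5 on Day 7, -1.0 ± 0.13) and the ephrin Efna1 (-0.95 ± 0.12) fell, and the receptor Epha3 rose (0.66 ± 0.13). Cyclic nucleotide and adrenergic genes fell in 12 of 23 and rose in 2. The phosphodiesterase Pde8b went from 738, 711, 722 and 557 on Day 0 to 309, 258, 394 and 380.0 on Day 7 (-1.01 ± 0.16). The adenylyl cyclase Adcy8 fell too (-0.65 ± 0.18). Of 20 prostanoid genes 8 rose and 4 fell (40% and 20%, beside 17.1% and 18% of all tested genes). The prostaglandin E2 receptor Ptger4 (645, 789.8, 566 and 654 on Day 0 and 2196, 2117, 1582 and 1879 on Day 7, 1.55 ± 0.15), cyclooxygenase 2, Ptgs2 (0.95 ± 0.13), and the leukotriene helper Alox5ap (0.94 ± 0.17) rose. The FP gene Ptgfr fell from 259, 308, 384 and 265 on Day 0 to 140.0, 123, 229 and 200.1 on Day 7 (-0.83 ± 0.24, adjusted p = 0.0088). Taking 1 mouse out moved rises of the axon guidance list from 5 to 3 (Day 7 No.1). Rises of the cyclic nucleotide and adrenergic list went from 2 to 1 (Day 7 No.2). Falls of the prostanoid list went from 4 to 2 (Day 0 No.1 or Day 7 No.1 or No.2).

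Genes of injured epithelium rose while many markers of mature epithelium fell. Of 17 genes of injured and transitional epithelium, the state between type 2 and type 1 cells after damage, 16 rose and none fell (median 0.91). Sprr1a, a squamous envelope protein, had intensities of 112, 80.4, 69.8 and 51.3 on Day 0 and 2447, 1724, 965 and 879 on Day 7 (4.19 ± 0.42). Sfn (14-3-3 sigma) had 50.1, 31.1, 13.6 and 36.1 on Day 0 and 428, 410.2, 295 and 239 on Day 7 (3.27 ± 0.41), with No.1 and No.2 above No.3 and No.4 on Day 7 in both. The tight junction gene Cldn4 rose by 1.90 ± 0.37. Alveolar type 1 markers fell in 9 of 16 and 1, Igfbp2, rose (0.62 ± 0.13). The anchoring protein Akap5 went from 4487, 3224, 3836 and 3468 on Day 0 to 2243, 1401, 2265 and 3064 on Day 7 (-0.80 ± 0.19). Alveolar type 2 markers fell in 6 of 18 and rose in 1 (median -0.17). Complement factor 5, Hc, went from 10174, 9184, 8418 and 8586 on Day 0 to 3441, 3560.5, 6916 and 5999.6 on Day 7 (-0.98 ± 0.18). The transcription factor Etv5 (-0.85 ± 0.18) and the phosphate transporter Slc34a2 (-0.54 ± 0.12) fell. For Hc, Day 7 No.1 and No.2 lay lower than Day 7 No.3 and No.4, and the list's mean changes from the Day 0 mean were -0.47, -0.39, -0.04 and -0.16 in the 4 mice. Leaving out 1 mouse moved rises of the alveolar type 2 list from 1 to 0 (Day 0 No.1, No.3 or No.4 or Day 7 No.1, No.3 or No.4). Sfn lay under the floor in 1 of 4 Day 0 mice, so the size of that change depends on the floor.

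In the airways, club and goblet genes fell in 10 of 17 and rose in 2 (median -0.58). Lypd2 went from 2328, 2574, 1574 and 1672 on Day 0 to 737, 764, 725 and 669.6 on Day 7 (-1.43 ± 0.20), and the esterase Pon1 (-1.26 ± 0.25) and the secreted airway protein Bpifa1 (-1.13 ± 0.22) fell. Ciliated cell genes fell in 10 of 22 and none rose. The tubulin-binding Tppp3 went from 6426, 7055, 6469 and 6894 on Day 0 to 2376, 2439, 4019 and 3069.7 on Day 7 (-1.23 ± 0.16). The cilium motor part Hydin fell (-0.91 ± 0.16). Basal cell and keratin genes mostly failed the filter, with 6 of 16 tested and 2 that fell, one being the airway factor Sox2 (-0.59 ± 0.16, 1042, 688, 709 and 651 on Day 0 and 481, 478, 501 and 534 on Day 7). Junction genes fell in 8 of 25 and rose in 3, the falls including the scaffold Tjp1 (-0.58 ± 0.08) and the desmosome plaque gene Pkp2 (-0.48 ± 0.12). Ion channel genes fell in 11 of 26 and rose in 1. The potassium channel Kcnk2 went from 1467, 1158, 912 and 909.5 on Day 0 to 440.1, 439, 587 and 555 on Day 7 (-1.09 ± 0.15). The chloride channel Cftr fell (-0.72 ± 0.21). Omitting a single mouse moved falls of the ciliated list from 10 to 5 or 6 (Day 0 No.1 or Day 7 No.2). Falls of the basal cell and keratin list went from 2 to 1 (Day 0 No.1 or No.2 or Day 7 No.2 or No.3). Rises of the ion channels and aquaporins list went from 1 to 0 (Day 0 No.1, No.2, No.3 or No.4 or Day 7 No.1, No.2 or No.3). Falls of the ion channels and aquaporins list went from 11 to 6 or 7 (Day 0 No.1 or Day 7 No.4).

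Endothelial genes fell widely. Of 24 general endothelial markers 15 fell and none rose (median -0.52), and of 20 capillary markers 14 fell and 2 rose (median -0.50). Ramp2, the adrenomedullin receptor partner, had intensities of 10509.8, 12742, 9170.2 and 9631 on Day 0 and 5182, 5940.0, 6726 and 5320.0 on Day 7 (-0.92 ± 0.13), and the angiopoietin receptor Tek fell by 0.80 ± 0.11. Among capillary genes Cyp4b1 (-1.23 ± 0.17) and the endothelin receptor Ednrb (4088, 5021, 4634 and 4521 on Day 0 and 1721, 1727, 2308 and 2267 on Day 7, -1.2 ± 0.16) fell and the chemokine Cxcl12 rose (1.59 ± 0.16). Artery and vein genes moved both ways (4 up and 3 down of 14): the venular Ackr1 and Selp, given above, and the adhesion molecule Vcam1 (0.66 ± 0.12) rose, and Hey1 of arteries fell. Of 7 lymphatic genes Flt4 fell (-0.38 ± 0.10) and Stab1, which macrophages share, rose (0.42 ± 0.15). Each is 14.3% of the list, beside 18% that fell and 17.1% that rose of all tested genes. Dropping 1 mouse moved rises of the lymphatic endothelium list from 1 to 0 (Day 0 No.1, No.2 or No.4 or Day 7 No.1 or No.2). With 1 mouse left out the limma test was not passed by Stab1 without Day 0 No.1, No.2 or No.4 or Day 7 No.1 or No.2 (adjusted p from 0.050 to 0.098).

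Mesenchymal markers of the resting lung fell more often than they rose. Resident fibroblast genes fell in 9 of 23 and rose in 3. The methyltransferase Inmt went from 27723, 32321, 27157 and 31636 on Day 0 to 12961, 12826, 20616 and 16594 on Day 7 (-0.91 ± 0.16). The receptor Fgfr4 fell (-1.08 ± 0.24), while the microfibril protein Mfap4 rose (0.92 ± 0.19). Smooth muscle and contractile genes had a median of 0.09, with 6 down, such as Casq2 (-0.80 ± 0.20) and Synpo2 (-0.70 ± 0.16), and 2 up of 17, one being tropomyosin, Tpm1 (0.58 ± 0.09, 4075, 3982, 4529.5 and 4384 on Day 0 and 6616, 7076, 6156 and 6306 on Day 7). Pericyte genes fell in 5 of 15 and rose in 2, the falls including the nitric oxide receptor chain Gucy1a1 (-0.64 ± 0.11). Mesothelial genes fell in 5 of 10 and rose in 2. Upk3b went from 1394, 1464, 1081 and 1385 on Day 0 to 772, 555, 789 and 742 on Day 7 (-0.87 ± 0.17). Nerve and Schwann cell genes held 7 tested of 15, 3 down and 2 up, with the glutamate receptor Gria1 going from 209, 204, 185 and 222 on Day 0 to 41.1, 47.8, 87.0 and 40.9 on Day 7 (-1.99 ± 0.23). The myelin gene Pmp22 fell (-0.51 ± 0.08). Removal of 1 mouse moved rises of the smooth muscle and contractile list from 2 to between 1 and 4 (Day 0 No.2, No.3 or No.4 or Day 7 No.1, No.2 or No.4). Rises of the pericyte list went from 2 to 0 or 1 (each of the 8 mice left out in turn). Falls of the pericyte list went from 5 to 2 or 3 (Day 0 No.3 or No.4 or Day 7 No.1 or No.2). Rises of the mesothelium list went from 2 to 1 (Day 0 No.4 or Day 7 No.1 or No.2).

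Markers of striated muscle, fat, thymus and liver fell too. Of 21 striated muscle genes 16 fell (median -0.91), and their summed intensity was 40865 to 52600 on Day 0 and 23689 to 32023 on Day 7, with no tested member at the floor in all 8 mice. Cox8b, a muscle form of cytochrome oxidase, had intensities of 1954, 808, 741 and 919 on Day 0 and 147, 307, 384 and 401 on Day 7 (-1.78 ± 0.32) and myoglobin, Mb, 2309.6, 1277, 2105 and 1784 on Day 0 and 355, 529, 981 and 829.6 on Day 7 (-1.52 ± 0.32). Of 12 fat cell genes 10 fell (median -1.17, summed intensity 14499 to 30297 against 7690 to 11623). The lipogenic Thrsp (1413, 1789, 620.1 and 1236 on Day 0 and 362, 273, 269 and 561 on Day 7, -1.71 ± 0.40) and adiponectin, Adipoq (3522, 3789, 1236 and 1972 on Day 0 and 1076, 595, 562 and 814 on Day 7, -1.66 ± 0.36), did not overlap between days, though Day 0 No.1 and No.2 lay far above Day 0 No.3 for Adipoq. Of 9 thymocyte genes 4 were tested and 2 fell (summed intensity 3856 to 4228 against 2511 to 3115). Of 14 liver genes 2 were tested and both fell, Asgr1 (243, 194, 140.5 and 144 on Day 0 and 39.1, 4.1, 58.0 and 69.7 on Day 7, -1.98 ± 0.43) and Hamp (-1.08 ± 0.25), with summed intensity of 602 to 849 against 212 to 423. How much muscle, fat, thymus or liver tissue each sample held, and whether it lay inside or beside the lung, was not tested. Asgr1 lay under the floor in 1 of 4 Day 7 mice, so the size of that change depends on the floor.

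Genes of the daily clock and of rapid response complete the lists. Clock and clock output genes fell in 9 of 17 and rose in 2 (median -0.67). Dbp, an output factor, had intensities of 4688, 6713, 7681 and 6251 on Day 0 and 1414, 1308, 4570.1 and 4343 on Day 7 (-1.35 ± 0.33). Day 7 No.1 and No.2 lay far below the lowest Day 0 mouse, and Day 7 No.3 and No.4 lay just under it. Nr1d1, a clock repressor (1146, 878, 1235 and 989 on Day 0 and 327, 294, 626 and 457 on Day 7, -1.35 ± 0.26), and the output factor Hlf (-1.15 ± 0.20) fell, and the opposing factor Nfil3 rose (1.32 ± 0.30). The sources do not state the hour at which lungs were taken, and its part was not tested. The E-box CACGTG was in the promoters of 5 of 17 genes of the list (29.4%, against 8.1% of all genes) and the D-box TTATGNAA of 2 of 17 (11.8%, against 4.0%). The E-box of the output factor Tef (chr15:81802423-81802722, plus strand) is shown in capitals.
Tef: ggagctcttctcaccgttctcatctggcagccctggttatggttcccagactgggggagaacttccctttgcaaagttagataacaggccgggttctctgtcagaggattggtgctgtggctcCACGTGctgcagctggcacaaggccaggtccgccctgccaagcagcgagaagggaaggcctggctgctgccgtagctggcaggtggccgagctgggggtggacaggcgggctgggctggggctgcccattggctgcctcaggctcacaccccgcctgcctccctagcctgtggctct

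Immediate-early genes rose in 6 of 23 and fell in 2 (median -0.04). The zinc finger factor Egr2 went from 181, 189.6, 166 and 218 on Day 0 to 1113, 979.8, 600.0 and 802 on Day 7 (2.20 ± 0.22). Myc rose by 1.35 ± 0.17 and Nr4a2 fell (-0.61 ± 0.17). Transcription factors of lung development fell in 16 of 28 (median -0.50). Sox11 had intensities of 884, 1610.5, 1993 and 2058 on Day 0 and 573, 486, 748 and 770.1 on Day 7 (-1.28 ± 0.31), Hoxb5 fell by 1.01 ± 0.20 and Elf5, of the distal epithelium, (-0.97 ± 0.20), and the mesenchymal factor Snai1 rose (0.60 ± 0.14). The antioxidant response element TGACNNNGC was in the promoters of 8 of 22 genes of the antioxidant list (36.4%, against 14.0% of all genes), whose members did not move one way. Counts moved without 1 mouse for falls of the immediate-early list from 2 to 1 (Day 0 No.2, No.3 or No.4 or Day 7 No.1, No.3 or No.4).

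Beyond the lists, genes were named by the size of their change among those without overlap between the days, 30 each way. Chl1, a cell adhesion molecule, had the largest fitted rise (50.9, 18, 46.4 and 18.9 on Day 0 and 1187, 1156, 579 and 690.2 on Day 7, 4.65 ± 0.37), and its relative Nrcam rose by 2.85 ± 0.35. The acute-phase protein Saa3 had intensities of 252, 249, 238 and 261 on Day 0 and 2825, 4546, 2853 and 6974 on Day 7 (3.98 ± 0.38), highest in No.4. The hyaluronan-degrading Cemip (3.54 ± 0.32), the orphan receptor Gpr176 (3.08 ± 0.40), the lectin-like Chodl (3.05 ± 0.24), the anion exchanger Slc26a4 (2.75 ± 0.34) and Slfn9 (3.39 ± 0.38) rose by more than 2.5 on the log2 scale, as did Wfdc17 (2.87 ± 0.34), a secreted macrophage protein, and the division genes Psrc1 (2.81 ± 0.28) and Nuf2 (2.86 ± 0.26). Among the 30 largest falls were the bone morphogenetic protein inhibitor Chrdl1 (-1.90 ± 0.27), the peroxisomal thiolase Acaa1b (-1.95 ± 0.32), the glycine methyltransferase Gnmt (-1.82 ± 0.29), the solute carrier Slc5a12 (-1.86 ± 0.33), the cadherin Cdh16 (-1.69 ± 0.23), the carboxylesterase Ces2b (-1.62 ± 0.26) and the genes Bex2 (-1.69 ± 0.25) and Rab6b (-1.52 ± 0.17), the last a small GTPase. Of 3 genes that rose from under the floor in all 4 Day 0 mice, Thbs4 and Lama1 are given above. The phospholipase Plcd4, named after its values were seen, had a measured difference of at least 2.55. It too passed the filter on low intensity only through arrays other than those of WT Day 0. Chodl lay under the floor in 1 of 4 Day 0 mice, Chl1 and Slfn9 lay under the floor in 2 of 4 Day 0 mice, and Cemip lay under the floor in 3 of 4 Day 0 mice, so the size of those changes depends on the floor.

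The Day 7 mice did not respond to the same extent. Among genes that rose, No.2 had the largest change in 913 and No.3 the smallest in 794, and among genes that fell No.2 had the largest in 895 and No.3 the smallest in 947. The median change of the genes that rose was 0.62, 0.68, 0.52 and 0.56 in No.1 to No.4 on the deposited scale, and of those that fell -0.59, -0.62, -0.44 and -0.49. This order was not the same in every list. Mitosis means were lowest in No.1, interferon means highest in No.4, CC chemokine means ran 1.81, 2.31, 1.24 and 1.65, and striated muscle means -1.22, -1.14, -0.64 and -0.49.

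**Figure D4:**
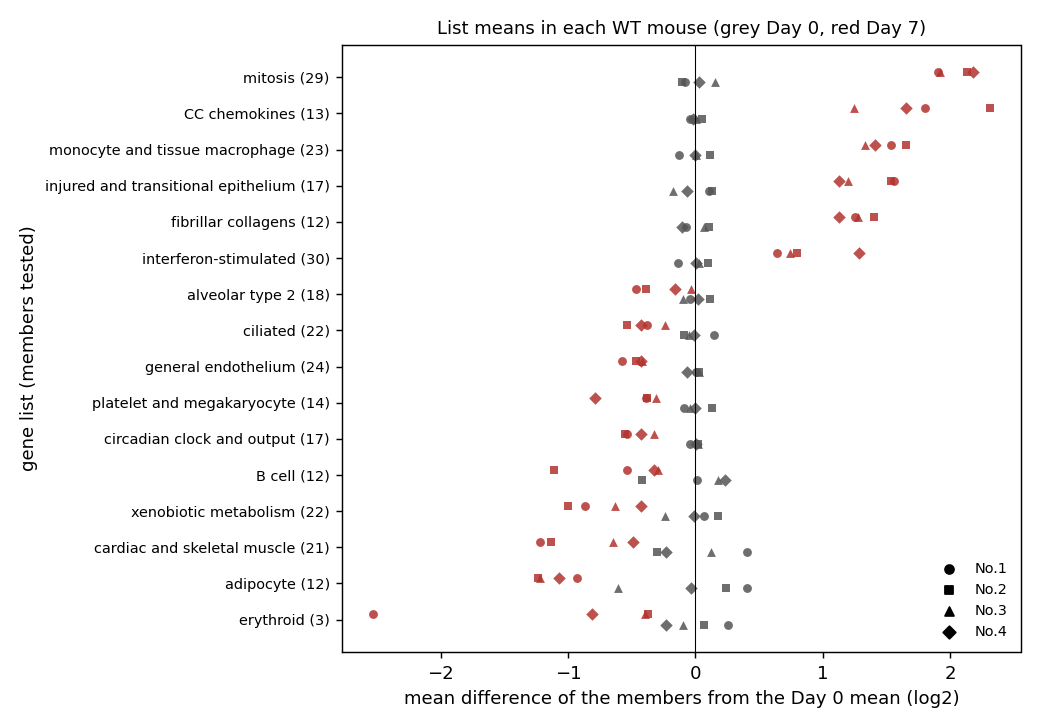
Mean difference of the members of 16 lists from the Day 0 mean in each WT mouse (x axis, log2; Day 0 grey, Day 7 red; symbol for the mouse number). Rising lists separate fully by day, while the B cell mean of Day 0 No.2 (-0.42) lies below those of Day 7 No.3 and No.4. The alveolar type 2 mean of Day 7 No.3 (-0.036) lies above those of Day 0 No.1 (-0.040) and No.3 (-0.093).

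The change of the same genes in FP-KO lungs was set beside the WT change. In FP-KO lungs 1523 genes rose (12.6%) and 1291 fell (10.7%) from Day 0 to Day 7. Of the WT rises 1218 also rose in FP-KO lungs (59.0% of the WT rises and 80.0% of the FP-KO rises), and 1013 falls were shared (46.7% and 78.5%), with 0 genes called in opposite directions. Of the 4236 genes changed in WT lungs 4136 (97.6%) had the same sign in FP-KO lungs, against 81.1% of all genes, and of the 490 and 196 genes that changed by at least 1 in WT lungs 684 did. Across the 12062 genes, which are not independent replicates, the changes correlated at r = 0.874 (Spearman's rho 0.803). The median FP-KO change was 0.42 among genes that rose and -0.34 among genes that fell in WT lungs, but these genes were chosen by the WT values. A test of the difference between the 2 changes, the limma interaction of genotype and day, called 0 genes at adjusted p under 0.05 (0.0%) and 765 at unadjusted p under 0.05 (6.34%), with a median 95% interval of 0.40 either way. With WT Day 7 No.3 left out it called 1 gene.

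The genes with the 5 smallest interaction p-values were Ifi44l, Fgfbp1, Ccn2, Wdr4 and Dnah8. Ifi44l, an interferon-induced gene that lies near Ptgfr on the same chromosome, was near or under the floor of 24.3 in the WT mice (2.3, 2.4, 12.6 and 28.8 on Day 0 and 27.9, 2.3, 33.9 and 1.6 on Day 7), so no size is given. Its adjusted p in the limma fit across all genes was 0.111. The carrier Fgfbp1 fell by 1.39 on the log2 scale in WT and changed by -0.38 in FP-KO lungs (-1.01 ± 0.22, adjusted p = 0.599). Ccn2, a matricellular TGF-beta target, rose in WT lungs from 6303, 8268, 5826 and 5577 on Day 0 to 15034, 16511, 10409 and 10796 on Day 7 (0.98 ± 0.14). In FP-KO lungs it changed by 0.11, and its adjusted interaction p was the same as that of Fgfbp1. The tRNA-modifying Wdr4 changed by 0.74 and 0.22 and the ciliary motor Dnah8 by -1.39 and -0.23 in the 2 genotypes, with the same adjusted p. Striated muscle and adipocyte genes, of which 16 and 10 fell in WT lungs, fell in 2 and 0 in FP-KO lungs, and the smallest adjusted interaction p among their members was 0.772 in both lists, so a difference between the genotypes was not shown.

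**Figure D5:**
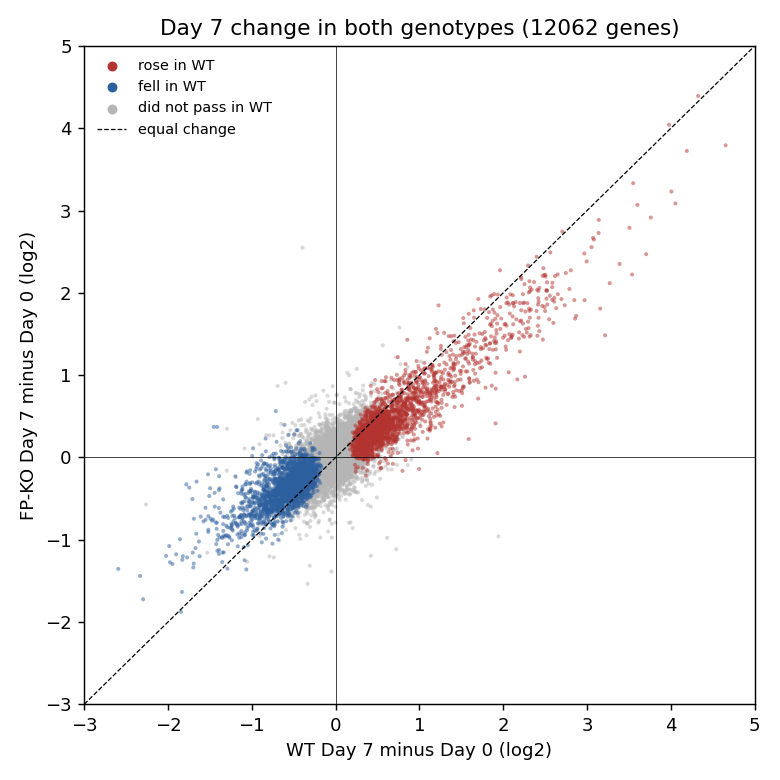
Change from Day 0 to Day 7 in WT lungs (x axis, log2) and in FP-KO lungs (y axis, log2), with 1 point for each of the 12062 genes, coloured by the WT call, and the line of equal change dashed. The 0 genes called in opposite directions leave the upper left and lower right with genes that did not pass in 1 of the genotypes or in both.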

How the data were processed

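Lung RNA of 25 mice was measured on Affymetrix mouse genome arrays, 1 array a mouse, and the 4 WT Day 7 arrays were compared with the 4 WT Day 0 arrays. The intensities were deposited by the authors on a linear scale and, as read from the values, scaled so that each array's mean is 500 once the outer 2% on either side are dropped. The sources used here do not state the software behind them. From the deposited values, intensities below the 20th percentile (24.3) were set to it, log2 values were quantile normalized, and 64 control, 932 multi-gene and 9160 unnamed probe sets were left out. The brightest probe set stood for each of 18193 genes, and 12062 genes were tested that exceeded the median of their array 4 or more times. Gene names came from the platform annotation, with 34741 of 34945 probe sets matched by gene number to RefSeq (GRCm38.p6). Changes were fitted with limma 3.58.1 in R 4.3.3 as 6 group means over all 25 arrays, with Benjamini-Hochberg adjustment over all genes and a threshold of 0.05. On simulated data the fit recovered 52%, 88%, 100% and 100% of genes changed by 0.5, 1, 1.5 and 2, with 6 false calls. The simulated noise was normal and independent between genes, and far fewer genes changed than were called in the real data. These figures therefore do not give the false calls or recovery of the real comparison. Arrays limit precision by their number.

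The members and the 98 lists were chosen with earlier results of these data known. Genes were named by rule. For each list these were up to 3 members that passed, by size of change, in the direction of more calls, and the 1 largest the other way (2 each way in a tie). Over all genes they were the 30 largest rises and falls without overlap, the 10 largest limma statistics each way, the 10 widest Day 7 spreads and the 5 smallest interaction p-values. Ptgfr and a few lung markers were added as checks. Of 372 genes so selected, 148 had more than 1 tested probe set, 2 had one passing the other way (Ndufs4 and Decr1), and 37 used a probe set whose probes can match related genes. Other scalings, floors, filters, array sets, probe set rules, a replicate block and single mice left out were tried.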

Additional observations from a re-analysis of the deposited data

Results flagged for a closer look

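Of 218 groups of 4 mice examined, 15 held 1 mouse set apart from the other 3 by more than Dixon's 95% critical value, where chance gives about 1 in 20. On Day 0 these were No.2 for the glutathione transferase Gstm1 (intensity 11248.7), No.1 for the inhibitory receptor Cd200r1 (124.8), the airway factor Sox2 (1042.2) and the muscle gene Cox8b (1954.5), No.3 for Col1a1 (1252.8), and No.4 for the phosphodiesterase Pde8b (556.7) and for Golga7b (113.7). On Day 7 they were No.3 for the bundling protein Fscn1 (2203.9), the laminin chain Lama1 (147.7) and the glutamate receptor Gria1 (87.0), and No.4 for Cyp1a1 (436.9) and the muscle troponin Tnnc2 (138.8). Among array measures, the ratio of 3′ to 5′ signal of Gapdh was 0.9 in Day 0 No.1 and 0.78 in Day 7 No.2, and the 18S ribosomal RNA intensity was 2869.8 in Day 0 No.1.

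Probe sets without a gene symbol also changed. Of 2843 that passed the filter on low intensity, 134 rose and 255 fell in the limma comparison, 48 and 55 of them by at least 1 on the log2 scale.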

How the results depend on the processing

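Over the settings tried, from 1638 to 2440 genes rose and from 1666 to 2439 fell, and leaving out 1 mouse gave 1733 to 2054 and 1799 to 2070, all within 1.5 times the reported counts. Genes that rose by at least 1 numbered 394 to 576 over the settings and 462 to 533 with 1 mouse left out, and genes that fell by at least 1 numbered 148 to 237 and 155 to 244. The interaction of genotype and day called 1 gene with the floor at the 30th percentile and 0 to 1 with 1 mouse left out, the 1 gene without WT Day 7 No.3, against 0 reported. With the mean of all probe sets 1543 of 1908 rises and 1477 of 2029 falls still tested kept their call, and 6 genes were called in the opposite direction. Under that setting the change of Cox8a was -0.0687, of Decr1 -0.1318 and of Xiap 0.0443, each opposite to the reported sign. The surfactant gene Sftpc, near 0, was -0.0837 with values as deposited, -0.0741 with a common median, -0.0056 with array weights, and -0.0165 to 0.023 with 1 mouse left out. Igkv9-120, an antibody gene with a wide spread, ran from -0.32 to 0.79 with 1 mouse left out. Array number, and signal near the floor for dim genes, limit what could be seen.

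With the replicate number as a block 2165 genes rose and 2306 fell, with 491 and 196 of them by at least 1, and the interaction called 0. Pairing by number asked for a correlation of same-numbered deviations over 0.1 in every pair. They were 0.051, 0.159, 0.092 and 0.056 in WT and 0.072, 0.125, 0.069 and 0.097 in FP-KO mice, all above 0 but most short of that limit. Day 7 No.1, No.3 and No.4 each correlated best with a Day 0 mouse of another number, No.2 (0.086), No.4 (0.122) and No.3 (0.127), which keeps to the No.1 and No.2 against No.3 and No.4 split of the second component; no block was fitted on that split. A block within the 8 WT arrays, chosen after seeing the data, gave 1977 rises and 2023 falls.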
